A study of Homo sapiens with 12 samples.

Results

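The genes described here are 9 acute phase proteins of the liver, HP, HPX, CRP, SAA1, SAA2, SAA4, ORM1, ORM2 and LBP, and the cytokine-induced inhibitor SOCS3. They were matched by gene symbol, and all 10 were found among the 58735 genes of the count table. The members were chosen with earlier results of these data known, so the counts of members below do not come from a blind choice. Their RNA was measured by poly-A RNA sequencing in Huh7 and HLF, 2 lines grown from human hepatocellular carcinomas, both labelled wild-type and both kept in DMEM with fetal bovine serum. Each line was grown as Inject-Embed, Mix-Embed and 2D culture, with 2 libraries per group that the series calls biological replicates. In Inject-Embed culture, 4000 Huh7 or 2000 HLF cells per well were injected as a suspension into a set Matrigel bed. In Mix-Embed culture, 20000 Huh7 or 10000 HLF cells per well were stirred into Matrigel and laid over a set layer of the gel. Both 3D cultures were collected on days 6 to 8, whereas the flat 2D cultures were collected on day 2 at about 90% confluency, so the form of the culture, its age and the number of cells seeded cannot be told apart.

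The acute phase response is the change in plasma proteins that the liver makes during infection or injury. Interleukin 6 and related cytokines bind receptors that share the chain IL6ST (gp130), the bound receptor activates Janus kinases and STAT3, and STAT3 acts with C/EBP factors, and with NF-kB downstream of interleukin 1, on the genes of secreted proteins. SOCS3 is itself a STAT3 target, and its protein binds gp130 and the Janus kinases and shuts the signal down, so its RNA is widely used as a readout of recent gp130 signalling.

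Library totals ran from 12325877 to 16041906 counts, and levels are given as CPM, the count scaled to a common library total after TMM scaling, on which 3 counts in a library are worth 0.178 to 0.255 CPM. A total of 19342 genes passed the filter on low counts and were tested, among them 9 of the 10 members; SAA4 did not pass. All 8 hepatocyte markers checked had over 3 counts in every Huh7 group, with a summed level of 11700 to 11900 CPM in Inject-Embed, 11400 to 11600 CPM in Mix-Embed and 12400 to 13000 CPM in 2D culture. APOB held most of this sum, and single markers moved apart across Inject-Embed, Mix-Embed and 2D culture. FABP1 averaged 235, 384 and 467 CPM in that order and APOA2 458, 727 and 704 CPM. ALB averaged 1170, 661 and 357 CPM and HNF4A 498, 550 and 366 CPM. In HLF only FGB of the 8 markers had over 3 counts, and APOA2, APOB, TTR and FABP1 were at 0 in every HLF group. The liver markers were thus largely absent from HLF, which like Huh7 was grown from a hepatocellular carcinoma. The macrophage markers CD163 and C1QA were at 0 in all 12 libraries, while the 8 macrophage markers summed to 234 CPM in Huh7 Inject-Embed, 274 to 280 CPM in Mix-Embed and 318 to 335 CPM in 2D libraries, almost all of it from LYZ. Mitochondrial ribosomal RNA took 0.48 to 0.49% of counts in Huh7 Inject-Embed, 0.5 to 0.54% in Huh7 Mix-Embed and 0.31% in Huh7 2D libraries, and the HLF libraries ran in the same order, at 0.47 to 0.48%, 0.58 to 0.6% and 0.29 to 0.3% in Inject-Embed, Mix-Embed and 2D culture. Its part in the results below was not tested. The summed level of 6 stellate cell and fibroblast markers moved the same way as the members in Huh7, at 41 to 46.2 CPM in Inject-Embed, 83.3 to 89.1 CPM in Mix-Embed and 139 to 141 CPM in 2D culture, with 3, 5 and 4 of the 6 genes over 3 counts in these groups and nearly all of it from COL1A2; its part was not tested either. In these bulk libraries, fewer expressing cells and less RNA per cell cannot be told apart.

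In Huh7 cells the members spanned a wide range, with CRP undetected in 2D culture and SAA4 near the limit of counting. On the FPKM scale, which corrects for length, HP stood highest in 2D culture at 44.5 ± 2.01 FPKM (SD, n = 2), ahead of HPX at 36.8 ± 1.31 FPKM. ORM1 followed at 14.8 ± 1.12 FPKM and ORM2 at 13.4 ± 0.0976 FPKM, then SOCS3 at 4.78 ± 0.822 FPKM and LBP at 3.7 ± 0.101 FPKM. In both of these neighbouring pairs the difference was little more than the larger SD, which with 2 libraries does not separate them. SAA2 had 1.7 ± 0.0645 FPKM, SAA1 1.02 ± 0.219 FPKM and SAA4 0.215 ± 0.183 FPKM, and CRP had no count in either 2D library. HPX stood above HP in Inject-Embed culture, at 20.3 ± 0.502 FPKM for HPX and 18.9 ± 0.367 FPKM for HP. The order of HP depends on the length used: the table divides its counts by 5405 bases, while its canonical transcript in GENCODE release 44 has 1534 bases.

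In Huh7 cells, the RNA of most of the secreted acute phase proteins and of SOCS3 was lower in both 3D cultures than in 2D culture. In Inject-Embed against 2D culture, 8 of the 9 tested members were lower, all but CRP, by edgeR's quasi-likelihood test with Benjamini-Hochberg adjustment over all genes, where 16.7% of all tested genes were lower and 13.2% were higher. In Mix-Embed against 2D culture 7 of 9 were lower, all but ORM2 and CRP, where 10.6% of all genes were lower and 11.2% were higher. No member was higher in either. The median log2 difference over the 9 members was -1.27 in Inject-Embed and -0.59 in Mix-Embed culture, against -0.01 and 0.0 over all tested genes; CRP, with 0 counts in both Inject-Embed and 2D libraries, entered the first at 0.0. By summed counts, Inject-Embed libraries held between 0.0395 of the 2D level for SAA2 and 0.618 for ORM2.

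**Figure D1:**
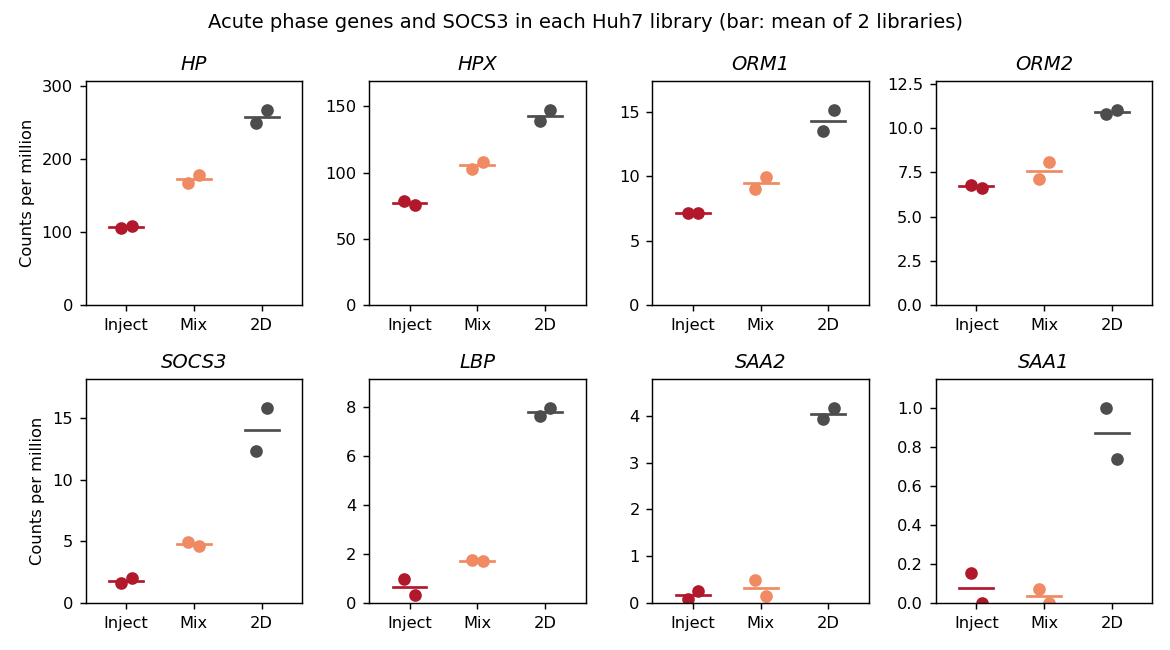
CPM of 8 members in each Huh7 library, with Inject-Embed, Mix-Embed and 2D culture from left to right, 2 points per culture and a bar at their mean; each panel has its own axis from 0. The panels show the 8 members called lower in Inject-Embed against 2D culture, so their order is not a separate result. The 2D points lie above all 3D points in each of them, for example at 249 and 267 CPM for HP against 106 to 179 CPM in the 3D libraries. The share of all genes with such a gap was not computed. CRP and SAA4 are not drawn, and the Inject-Embed and 2D libraries of SAA4 overlapped.

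The scavengers of haemoglobin and heme were the most abundant members, and both were lowest in Inject-Embed and highest in 2D culture. Haptoglobin, which HP encodes on chr16:72054592-72061055 of GRCh38, forward strand, captures haemoglobin released from red cells. HP had 106 and 109 CPM in Inject-Embed, 168 and 179 CPM in Mix-Embed, and 249 and 267 CPM in 2D libraries. The 3 cultures did not overlap, with Inject-Embed lowest and 2D highest. HP fell by 1.27 ± 0.06 on the log2 scale (SE) in Inject-Embed against 2D culture (edgeR adjusted p = 2.44e-20) and by 0.57 ± 0.06 in Mix-Embed against 2D culture (adjusted p = 5.28e-10). Of the 100-base windows of HP's canonical transcript, 16.2% also occur in HPR, a closely related copy, so the counting could have split some reads between them; HPR was also lower, at 23.2 ± 1.5 CPM in Inject-Embed, 34.7 ± 4.5 CPM in Mix-Embed and 44.3 ± 2.5 CPM in 2D culture.

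Hemopexin, encoded by HPX on chr11:6431049-6442617, reverse strand, binds free heme and carries it to the liver. HPX had 78.5 and 75.8 CPM in Inject-Embed, 103 and 108 CPM in Mix-Embed, and 139 and 147 CPM in 2D libraries. As for HP, the cultures formed 3 separate steps. HPX fell by 0.89 ± 0.07 in Inject-Embed (adjusted p = 7.4e-14) and by 0.44 ± 0.07 in Mix-Embed culture (adjusted p = 3e-06), both against 2D on the log2 scale. With limma on log2(FPKM + 0.1) the second did not pass, at -0.45 (adjusted p = 0.14).

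The serum amyloid A genes SAA1 and SAA2 had low levels in 2D culture and were close to 0 in the gels. SAA1 and SAA2 encode the inducible apolipoproteins that ride on high-density lipoprotein during inflammation, whereas SAA4 is the family's constitutive member in liver. SAA2, on chr11:18239223-18248643, reverse strand, had 1 and 3 counts (0.0757 and 0.255 CPM) in Inject-Embed, 7 and 2 counts (0.488 and 0.156 CPM) in Mix-Embed, and 59 and 62 counts (3.93 and 4.17 CPM) in 2D libraries. The 3D libraries all lay far below both 2D libraries, and the 3D cultures overlapped each other. SAA2 fell by 4.59 ± 0.67 in Inject-Embed (adjusted p = 4.63e-07) and by 3.59 ± 0.58 in Mix-Embed culture (adjusted p = 5.94e-06) on the log2 scale. By summed counts, Inject-Embed held 0.0395 of the 2D level (exact 95% counting interval 0.0106 to 0.104) and Mix-Embed 0.0816 (0.0364 to 0.16), where the interval covers counting error only.

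SAA1, on chr11:18266174-18269977, forward strand, had 2 and 0 counts in Inject-Embed, 1 and 0 in Mix-Embed, and 15 and 11 in 2D libraries. The groups did not overlap, but the ratios rest on few reads: 0.092 of the 2D level in Inject-Embed (counting interval 0.0106 to 0.367) and 0.0422 in Mix-Embed (0.00103 to 0.257). SAA1 passed the edgeR test in Inject-Embed (adjusted p = 0.014) and in Mix-Embed culture (adjusted p = 0.00615), and the call ended in 2 of the 12 fits that left out a library in each comparison. Without Huh7 Inject-Embed replicate 2 the first had an adjusted p of 0.191 and without Huh7 2D replicate 1 one of 0.114; without Huh7 Mix-Embed replicate 2 the second had one of 0.131 and without Huh7 2D replicate 1 one of 0.0703. The first also ended with no filter on low counts (adjusted p = 0.0643). Of SAA1's 100-base windows, 20.8% also occur in SAA2, and with the counts of both genes summed the level fell by 4.31 ± 0.59 in Inject-Embed (adjusted p = 1.15e-07) and fell by 3.72 ± 0.54 in Mix-Embed culture (adjusted p = 6.93e-07).

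SAA4, on chr11:18231349-18236893, reverse strand, was near the limit of counting, with 0 and 1 counts in Inject-Embed, 0 and 0 in Mix-Embed, and 1 and 4 in 2D libraries. The ratio of Inject-Embed to 2D was 0.239 with a counting interval of 0.00506 to 2.14, so no difference could be detected at this depth. The readthrough gene SAA2-SAA4 is annotated over 75.6% of SAA4's exon bases and 11.9% of SAA2's, and it had 0 counts in all 12 libraries; how reads in the shared exons were handled is not given in the sources used here, and the SAA4 counts are uncertain for that reason too.

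The orosomucoids, alpha-1-acid glycoproteins that bind lipophilic drugs in plasma, were also lower in the gels. ORM1, on chr9:114323056-114326475, forward strand, had 7.11 and 7.14 CPM in Inject-Embed, 8.98 and 9.96 CPM in Mix-Embed, and 13.5 and 15.1 CPM in 2D libraries. ORM2, its neighbour on chr9:114329869-114333252, had 6.81 and 6.63 CPM in Inject-Embed, 7.1 and 8.09 CPM in Mix-Embed, and 10.8 and 11 CPM in 2D libraries. In both genes every 3D library lay below both 2D libraries. ORM1 fell by 1.00 ± 0.20 in Inject-Embed (adjusted p = 8.04e-05) and by 0.59 ± 0.19 in Mix-Embed culture (adjusted p = 0.018), and the second call ended without Huh7 Mix-Embed replicate 1 (adjusted p = 0.163), without replicate 2 (adjusted p = 0.057) and without Huh7 2D replicate 2 (adjusted p = 0.15). It ended as well in DESeq2 (adjusted p = 0.0718) and in limma on log2(FPKM + 0.1) (adjusted p = 0.132).

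ORM2 fell by 0.69 ± 0.22 in Inject-Embed culture (adjusted p = 0.0115), a call that ended when any of the 4 libraries compared was left out (adjusted p up to 0.0673) and in DESeq2 (adjusted p = 0.0518). In Mix-Embed culture the ORM2 difference was -0.52 ± 0.21, which missed the threshold (adjusted p = 0.0727) but passed with only the groups compared (adjusted p = 0.0244) and in limma on log2(FPKM + 1) (adjusted p = 0.00258) and log2(FPKM + 0.1) (adjusted p = 0.0339). The 2 genes are near copies, with 35.5% of ORM1's 100-base windows also in ORM2 and 35.8% of ORM2's in ORM1, so the split of reads between them is uncertain. With their counts summed, the pair fell by 0.86 ± 0.15 in Inject-Embed (adjusted p = 1.13e-05) and by 0.56 ± 0.14 in Mix-Embed culture (adjusted p = 0.00304) on the log2 scale.

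LBP encodes the lipopolysaccharide-binding protein, which passes bacterial endotoxin on to CD14, and lies on chr20:38346356-38377023, forward strand. LBP had 0.984 and 0.34 CPM in Inject-Embed, 1.74 and 1.71 CPM in Mix-Embed, and 7.6 and 7.94 CPM in 2D libraries, from 13, 4, 25, 22, 114 and 118 counts. All 3 cultures were apart from each other. LBP fell by 3.50 ± 0.42 in Inject-Embed (adjusted p = 6.28e-09) and by 2.16 ± 0.36 in Mix-Embed culture (adjusted p = 8.71e-06).

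C-reactive protein, the pentraxin most used in the clinic as a marker of inflammation, was not detectable in Huh7 cells at this depth. CRP, on chr1:159712289-159714589, reverse strand, had 0 and 0 counts in Inject-Embed, 1 and 0 in Mix-Embed, and 0 and 0 in 2D libraries. No ratio is given, since all groups were at or under 3 counts.

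SOCS3, on chr17:78356778-78360077, reverse strand, had log2 differences larger than those of HP, HPX and the orosomucoids and smaller than those of LBP, SAA1 and SAA2 in both gels, an order that was not itself tested. It had 1.59 and 2.04 CPM in Inject-Embed, 4.94 and 4.59 CPM in Mix-Embed, and 12.3 and 15.8 CPM in 2D libraries, from 21, 24, 71, 59, 184 and 234 counts. The 3 cultures did not overlap, and the spread between the 2D libraries was smaller than the gap to either 3D culture. SOCS3 fell by 2.95 ± 0.19 in Inject-Embed (adjusted p = 1.25e-16) and by 1.55 ± 0.15 in Mix-Embed culture (adjusted p = 6.75e-11) on the log2 scale, and no fit that left out a library ended either call.

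The 2 gel methods also differed from each other. In Inject-Embed against Mix-Embed culture, 4 of the 9 tested members were lower, HP, HPX, LBP and SOCS3, where 13.4% of all tested genes were lower and 9.55% were higher, and the members' median was -0.69 against -0.03 over all genes. The differences were -0.69 ± 0.06 for HP (adjusted p = 1.3e-11), -0.45 ± 0.07 for HPX (adjusted p = 4.17e-06), -1.40 ± 0.24 for SOCS3 (adjusted p = 1.75e-05) and -1.34 ± 0.50 for LBP (adjusted p = 0.0448). The LBP call rested on few counts: without Huh7 Inject-Embed replicate 2, which held 4 counts, the difference was -0.80 with an adjusted p of 0.386, and it also ended in 4 other fits that left out a library, with adjusted p up to 0.138, with library totals alone (adjusted p = 0.0526), in DESeq2 (adjusted p = 0.0819) and in limma on log2(FPKM + 0.1) (adjusted p = 0.0689). The HPX call ended in that limma fit too (adjusted p = 0.167). ORM1 with -0.41 ± 0.20 (adjusted p = 0.16, but 0.0218 in limma on log2(FPKM + 1)), ORM2 with -0.17 ± 0.22 (adjusted p = 0.662) and SAA2 with a count ratio of 0.484 and a counting interval of 0.109 to 1.73 (adjusted p = 0.525) did not pass, and SAA1 and CRP had too few counts for a ratio. The comparisons of each gel with 2D share the 2D libraries, and the wells of the gels received different numbers of cells.

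**Figure D2:**
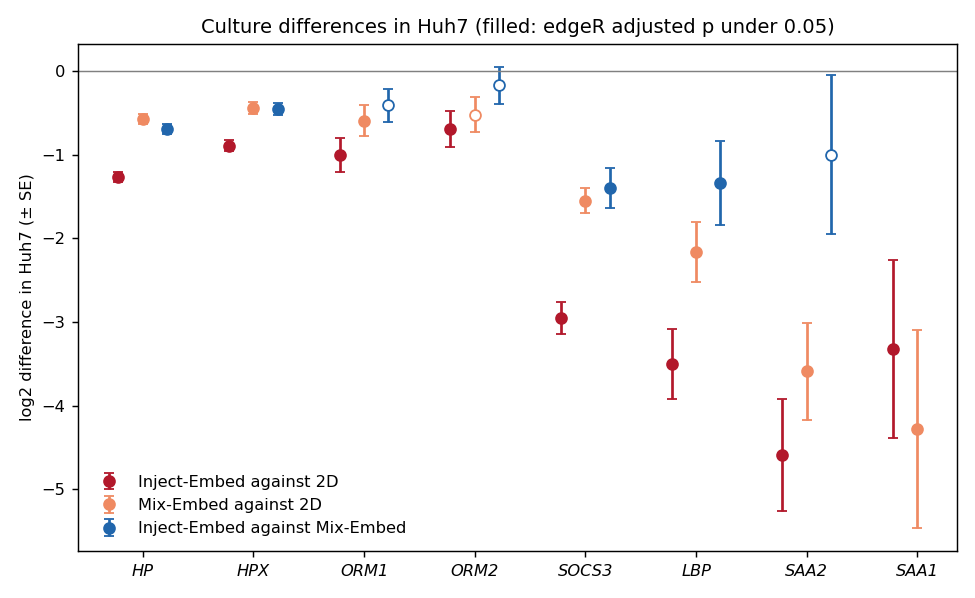
Log2 differences with SE (bars) of 8 members in Huh7 for Inject-Embed against 2D, Mix-Embed against 2D, and Inject-Embed against Mix-Embed; filled points passed an edgeR adjusted p of 0.05. The 8 members are those called lower in Inject-Embed against 2D. All points drawn lie below 0, from -0.17 for ORM2 between the gels to -4.59 for SAA2 in Inject-Embed against 2D. SAA1 between the gels is not drawn because both groups had at most 3 counts.

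Since HPX, ORM1 and SOCS3 were lower in the gels in Huh7 while CRP passed 3 counts in HLF groups alone, the stretches upstream of their RefSeq starts are shown with the motifs of the factors named above. The table of RefSeq starts used here, on GRCh38.p14, was matched for 5 members, CRP, ORM1, HPX, SAA4 and SOCS3, with 6 windows in all. Promoters of HP, SAA1, SAA2, ORM2 and LBP were not analysed here. Each line gives the 250 bases before the start, 5′ to 3′ on the gene's strand, and capitals mark a match on either strand to C/EBP (TTNCNNAA) or NF-kB (GGNNTTTCC). The windows are chr11:6440988-6441237 on the reverse strand for HPX, chr9:114322848-114323097 on the forward strand for ORM1, chr17:78360926-78361175 on the reverse strand for the start of SOCS3 that lies further upstream, and chr1:159714590-159714839 on the reverse strand for CRP.
HPX: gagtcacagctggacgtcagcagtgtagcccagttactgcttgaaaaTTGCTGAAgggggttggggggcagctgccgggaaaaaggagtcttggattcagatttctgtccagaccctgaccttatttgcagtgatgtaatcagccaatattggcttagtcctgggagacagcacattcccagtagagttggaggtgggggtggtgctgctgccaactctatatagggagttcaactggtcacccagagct
ORM1: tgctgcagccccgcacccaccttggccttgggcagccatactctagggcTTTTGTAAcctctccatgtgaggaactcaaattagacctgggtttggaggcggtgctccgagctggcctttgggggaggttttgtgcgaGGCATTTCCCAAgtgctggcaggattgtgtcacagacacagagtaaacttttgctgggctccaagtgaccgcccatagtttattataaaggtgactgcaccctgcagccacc
SOCS3: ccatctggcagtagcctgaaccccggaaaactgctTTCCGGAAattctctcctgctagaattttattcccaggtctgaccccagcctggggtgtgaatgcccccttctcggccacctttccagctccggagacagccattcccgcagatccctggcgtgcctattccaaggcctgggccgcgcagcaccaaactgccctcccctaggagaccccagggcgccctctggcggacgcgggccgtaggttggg
CRP: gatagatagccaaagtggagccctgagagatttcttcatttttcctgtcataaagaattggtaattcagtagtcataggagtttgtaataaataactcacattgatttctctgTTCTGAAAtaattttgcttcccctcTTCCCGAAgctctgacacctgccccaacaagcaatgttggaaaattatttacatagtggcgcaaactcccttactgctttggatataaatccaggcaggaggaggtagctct

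The C/EBP letters occurred in 5 of the 6 windows of the members, against 33.2% of 35116 windows of the same length across RefSeq genes. CRP held 2 such matches, ORM1 2, HPX 1 and this SOCS3 window 1. The match of ORM1 to NF-kB overlaps a C/EBP match in the same capital run, and NF-kB letters occurred in 1 of the 6 windows and in 5.5% of all. The STAT letters TTCNNNGAA were in 0 of the 6 windows and in 6.6% of all. They fix a gap of 3 bases, and other spacings were not searched. Neither SOCS3 window, chr17:78360926-78361175 or chr17:78359668-78359917, adjoins the deposited start of the gene at 78360077. The bases just before that start were not searched, so the 0 for STAT does not cover them. The HPX window lies inside the deposited gene, whose start on the reverse strand is at 6442617. The bases before that HPX start were not searched either. The HNF1 letters GTTAATNAT were in 0 of the 6 and in 0.7% of all. A match describes the letters in the window and is not a binding site.

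HLF cells presented another pattern, with SOCS3 RNA abundant and that of the secreted proteins close to absent. SOCS3 had 67.4 and 69.9 CPM in Inject-Embed, 83.9 and 89.2 CPM in Mix-Embed, and 64.7 and 63.3 CPM in 2D libraries. The Mix-Embed libraries stood above the other 4. SOCS3 was 0.44 ± 0.08 higher on the log2 scale in Mix-Embed than in 2D culture (adjusted p = 2.61e-05), while the difference of Inject-Embed from 2D culture, 0.10 ± 0.08, did not pass (adjusted p = 0.448).

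In each HLF comparison below, 6 of the 9 tested members had at most 3 summed counts in at least 1 of the groups. HP, SAA1, SAA2, ORM1 and ORM2 passed the filter only through Huh7 libraries and had too few HLF counts to be called. The counts of members are therefore not on a par with the shares of all genes beside them. In Inject-Embed against 2D culture, none of the 9 tested members passed edgeR's test in HLF in either direction, where 9.09% of all tested genes were higher and 8.86% lower. At an unadjusted p under 0.05 the count was 1, CRP. DESeq2 called 0 with no adjusted p for CRP, SAA1 and SAA2, and limma on log2(FPKM + 1) called 1, again CRP. In Mix-Embed against 2D culture 2 of 9 members were higher, CRP and SOCS3, and none was lower, where 14.4% of all genes were higher and 14.6% lower. In Inject-Embed against Mix-Embed culture 1 of 9, SOCS3, was lower, by 0.33 ± 0.08 (adjusted p = 0.00394), where 4.71% of all genes were lower and 3.56% higher. That last call ended without HLF Inject-Embed replicate 1 (adjusted p = 0.0757) and without HLF Mix-Embed replicate 2 (adjusted p = 0.107), and in limma on log2(FPKM + 1) (adjusted p = 0.0691) and log2(FPKM + 0.1) (adjusted p = 0.184).

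CRP was counted in HLF, though at a low level. It had 6 and 12 counts (0.389 and 0.753 CPM) in Inject-Embed, 17 and 23 counts (1.16 and 1.37 CPM) in Mix-Embed, and 0 and 4 counts (0 and 0.252 CPM) in 2D libraries. The 3 HLF cultures did not overlap. The summed counts of Mix-Embed were 10.2-fold those of 2D culture (exact 95% counting interval 3.68 to 39.1), and the edgeR test gave an adjusted p of 0.00242, which became 0.105 without HLF 2D replicate 1, the library with no CRP count. The ratio of Inject-Embed to 2D culture was 4.59 (1.51 to 18.7), which missed the edgeR threshold (adjusted p = 0.117).

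The other members were at or near 0 in HLF. HPX had 10 and 9 counts in Inject-Embed, 7 and 15 in Mix-Embed, and 7 and 10 in 2D libraries, and the groups overlapped. LBP had 0 and 2 counts in Inject-Embed, 6 and 3 in Mix-Embed, and 0 and 1 in 2D libraries; its Mix-Embed to 2D ratio was 9.15 with a counting interval of 1.27 to 401, and the edgeR test missed the threshold (adjusted p = 0.0596). HP, SAA1, SAA2, SAA4, ORM1 and ORM2 had at most 2 counts in any HLF group, which is under the floor of 3.

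**Figure D3:**
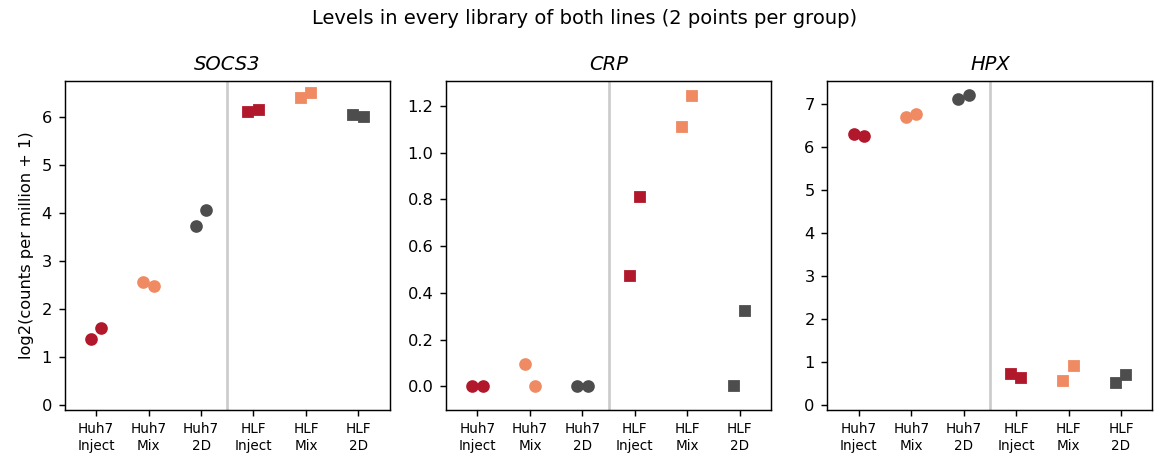
Levels of SOCS3, CRP and HPX in every library as log2(CPM + 1), with Huh7 groups (circles) left of HLF groups (squares) and Inject-Embed, Mix-Embed and 2D culture in each line from left to right. SOCS3 stands higher in every HLF library than in any Huh7 library, CRP above 1 count is seen in HLF alone, and HPX is high in Huh7 alone.

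Set against HLF in the same culture, Huh7 had more RNA of most of the secreted members and less of SOCS3. In 2D culture 7 of 9 tested members were higher in Huh7 and 1, SOCS3, was lower, where 38.1% of all genes were higher and 39.2% lower. In Inject-Embed culture 5 were higher and 2, SOCS3 and CRP, lower, where 37.6% of all genes were higher and 39.5% lower. In Mix-Embed culture 6 were higher and the same 2 lower, where 37.9% of all genes were higher and 39.1% lower. Scaling by library totals alone gave a median over all genes of -0.18 in 2D, -0.20 in Inject-Embed and -0.25 in Mix-Embed culture on the log2 scale, against -0.02, -0.04 and -0.02 with TMM, and left these counts of members as they were. The LBP call in Inject-Embed ended without Huh7 Inject-Embed replicate 1 (adjusted p = 0.0931) and the SAA2 call in Mix-Embed without Huh7 Mix-Embed replicate 1 (adjusted p = 0.0677).

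HP had 7698 summed counts in Huh7 and 0 in HLF 2D libraries, which is at least 2750-fold higher in Huh7 when the HLF group is set to 3 counts in all. HPX was 270-fold higher in Huh7 2D than in HLF 2D libraries (counting interval 168 to 464). SAA1 and SAA2 passed this test in 2D culture, at least 9.29-fold and 64.9-fold (17.6 to 542) higher in Huh7, and in Inject-Embed culture neither passed, with 2 summed counts in Huh7 and 2 in HLF for SAA1 and 4 in Huh7 and 1 in HLF for SAA2.

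SOCS3 averaged 1.81 ± 0.319 CPM in Huh7 and 68.7 ± 1.76 CPM in HLF Inject-Embed libraries (SD, n = 2 each). By summed counts HLF held 38.1 times the Huh7 level there (counting interval 28.4 to 52.4). In Mix-Embed culture the ratio was 18.2 (15.2 to 21.8), with 4.77 ± 0.25 CPM in Huh7 and 86.6 ± 3.78 CPM in HLF, and in 2D culture it was 4.57, with 14 ± 2.47 CPM in Huh7 and 64 ± 1 CPM in HLF. All 3 comparisons passed, with edgeR adjusted p of 2.11e-31, 2.13e-31 and 8.56e-24. CRP had 0 summed counts in Huh7 and 18 in HLF Inject-Embed libraries, at least 4.78-fold lower in Huh7.

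The culture responses themselves were compared between the lines by an interaction term, the Huh7 log2 difference minus the HLF one. SOCS3 differed in each of the 3: by -3.05 ± 0.21 in Inject-Embed against 2D (adjusted p = 1.86e-15), by -1.99 ± 0.17 in Mix-Embed against 2D (adjusted p = 1.69e-12) and by -1.07 ± 0.26 in Inject-Embed against Mix-Embed culture (adjusted p = 0.00374). The last call ended without Huh7 Inject-Embed replicate 1 (adjusted p = 0.0864) and with limma on log2(FPKM + 1), where the difference was -0.34 (adjusted p = 0.13). SOCS3 was the 1 member of 9 called in Inject-Embed against 2D, where 13.1% of all tested genes were lower and 11.7% higher, and in Inject-Embed against Mix-Embed, where 5.95% were lower.

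LBP was the other member called in Mix-Embed against 2D, at -5.06 ± 1.19 (adjusted p = 0.00133), where 10.2% of all genes were lower and 10.2% higher. It rests on 9 HLF counts in Mix-Embed and 1 in 2D libraries, and without HLF Mix-Embed replicate 1 the adjusted p was 0.0518. HPX, with -1.08 ± 0.47 in Inject-Embed against 2D (adjusted p = 0.0924) and -0.83 ± 0.45 in Mix-Embed against 2D culture (adjusted p = 0.215), did not pass in edgeR. In limma on log2(FPKM + 1) both passed, at -0.86 (adjusted p = 0.000315) and -0.50 (adjusted p = 0.00648), as did Inject-Embed against Mix-Embed, at -0.36 (adjusted p = 0.0444). For the other secreted proteins HLF had too few counts for its own response to be estimated, and for CRP it was Huh7 that had too few.

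The wider acute phase programme was followed in 19 other positive acute phase proteins, of which 16 were tested. The counts for this and the following lists are to be read against the shares of all genes given above, 16.7% lower and 13.2% higher in Huh7 Inject-Embed and 10.6% lower and 11.2% higher in Huh7 Mix-Embed against 2D culture. For HLF against 2D culture the shares were 8.86% lower and 9.09% higher in Inject-Embed. They were 14.6% lower and 14.4% higher in HLF Mix-Embed. In Huh7 Inject-Embed against 2D culture 12 were lower and none was higher, with a median of -0.62 against -0.01 over all genes. LRG1, a leucine-rich glycoprotein, had 41.2 ± 1.5 CPM in Inject-Embed and 148 ± 8 CPM in 2D culture and fell by 1.84 ± 0.09 (adjusted p = 2.18e-20). CP, the copper carrier ceruloplasmin, fell by 1.83 ± 0.07 (adjusted p = 3.21e-25), SERPING1, the complement C1 inhibitor, by 1.41 ± 0.07 (adjusted p = 4.72e-20) and SERPINA1, alpha-1-antitrypsin, by 0.51 ± 0.04 (adjusted p = 8.71e-16). In Mix-Embed against 2D culture 7 were lower and 2 higher, with a median of -0.23 against 0.0: LRG1 fell by 1.13 ± 0.09 and the fibrinogen chains FGA by 0.52 ± 0.05 and FGG by 0.41 ± 0.04, while CP was 0.21 ± 0.06 higher and HAMP, the iron hormone hepcidin, 1.05 ± 0.37 higher (adjusted p = 0.00724 and 0.035).

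In HLF the fibrinogen chains and other list members moved apart. FGB RNA, still present in HLF, averaged 26.5 ± 2.6 CPM in Inject-Embed, 44.3 ± 3.5 CPM in Mix-Embed and 166 ± 1.1 CPM in 2D libraries. It fell by 2.65 ± 0.06 in Inject-Embed against 2D culture (adjusted p = 2.22e-32). FGA and FGG fell as well, and in Mix-Embed against 2D culture the 3 fibrinogen chains were lower while AGT, C3, LRG1, SERPINA1 and SERPING1 were higher, so 3 of 16 were lower and 5 higher. In Inject-Embed against 2D culture 3 were lower and 2, C3 and SERPINA1, higher.

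Negative acute phase proteins, whose plasma levels drop during inflammation, leaned the other way in Huh7 against 2D culture but not between the gels. Of 7, Inject-Embed against 2D culture had 4 higher and 2 lower with a median of 0.22, and Mix-Embed had 5 higher and 1 lower with a median of 0.65. Inject-Embed against Mix-Embed had 5 lower and 1 higher (median -0.28), where 13.4% of all genes were lower and 9.55% higher. The 16 other positive proteins tested had 11 lower and 1 higher there (median -0.72). ALB, albumin, averaged 1170 ± 57 CPM in Inject-Embed, 661 ± 16 CPM in Mix-Embed and 357 ± 24 CPM in 2D culture, and was 1.71 ± 0.05 higher in Inject-Embed (adjusted p = 7.72e-28) and 0.89 ± 0.05 higher in Mix-Embed than in 2D culture (adjusted p = 1.28e-17). APOA1, of high-density lipoprotein, was 0.39 ± 0.04 higher in Inject-Embed and 0.67 ± 0.04 higher in Mix-Embed. AHSG, fetuin-A, was 0.30 ± 0.04 higher in Inject-Embed and 1.25 ± 0.04 higher in Mix-Embed. The cortisol carrier SERPINA6 fell by 0.35 ± 0.05 in Inject-Embed and by 0.17 ± 0.05 in Mix-Embed, and the iron carrier TF fell by 0.64 ± 0.04 in Inject-Embed but was 0.38 ± 0.04 higher in Mix-Embed culture.

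The receptors of cytokines that drive the acute phase response were mostly lower in 3D Huh7 cultures. Of 9 tested cytokine receptors, 6 were lower and 1 higher in Inject-Embed (median -0.46) and 5 lower and 1 higher in Mix-Embed against 2D culture (median -0.41). OSMR, the oncostatin M receptor, averaged 19 ± 1.4 CPM in Inject-Embed, 47.3 ± 0.76 CPM in Mix-Embed and 109 ± 7.8 CPM in 2D culture, and fell by 2.52 ± 0.08 in Inject-Embed (adjusted p = 4.4e-27) and by 1.20 ± 0.07 in Mix-Embed (adjusted p = 1.42e-17). IL1R1, the interleukin 1 receptor, fell by 1.59 ± 0.10 in Inject-Embed and by 1.02 ± 0.09 in Mix-Embed, and the shared chain IL6ST fell by 0.90 ± 0.07 in Inject-Embed and by 0.70 ± 0.06 in Mix-Embed. IL6R, the chain that binds interleukin 6, was the 1 higher receptor, 0.72 ± 0.09 higher in Inject-Embed and 0.76 ± 0.09 higher in Mix-Embed.

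Against 2D culture, none of the same receptors was lower in HLF. In Inject-Embed against 2D culture 3 were higher, IL1R1, IL1RAP and IL6ST, and in Mix-Embed 5 were higher, with IL6ST at 423 ± 20 CPM in Mix-Embed and 283 ± 16 CPM in 2D libraries (0.58 ± 0.06, adjusted p = 1.81e-11). The interaction term differed for 8 of 9 receptors in Inject-Embed against 2D culture. Of these, 7 were lower and 1 higher, where 13.1% of all genes were lower and 11.7% higher. The term was -2.49 ± 0.11 for OSMR (adjusted p = 2.64e-22) and -1.27 ± 0.09 for IL6ST (adjusted p = 8.86e-16). Of the 11 inducing cytokines listed, 7 were tested, and in Huh7 only LIF passed, falling by 2.05 ± 0.09 in Inject-Embed (adjusted p = 1.33e-22) and not passing in Mix-Embed, where it stood 0.18 ± 0.07 higher (adjusted p = 0.0764). IL6 itself had 0 counts in all Huh7 libraries and 24 in Inject-Embed, 39 in Mix-Embed and 16 in 2D HLF libraries.

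STAT3, the factor downstream of the receptors that share IL6ST, was lower in both gels in Huh7 and higher in Mix-Embed culture in HLF. In Huh7 STAT3 averaged 70.4 CPM in Inject-Embed, 100 CPM in Mix-Embed and 128 CPM in 2D culture and fell by 0.86 ± 0.06 in Inject-Embed (adjusted p = 3.83e-15) and by 0.36 ± 0.06 in Mix-Embed (adjusted p = 1.08e-05). In HLF STAT3 was 0.54 ± 0.06 higher in Mix-Embed than in 2D culture (adjusted p = 1.53e-10), and the interaction term was -0.90 ± 0.08 there. JAK1 was 0.49 ± 0.06 higher in Huh7 Inject-Embed and 0.22 ± 0.06 higher in Huh7 Mix-Embed than in 2D culture. In HLF JAK1 was lower in both gels, at 319 CPM in Inject-Embed, 291 CPM in Mix-Embed and 429 CPM in 2D culture. STAT5A was also higher in Huh7, by 0.63 ± 0.20 in Inject-Embed and 0.53 ± 0.20 in Mix-Embed. Over the 7 kinases and STAT factors, 2 were lower and 2 higher in Huh7 Inject-Embed against 2D (median -0.04) and likewise in Mix-Embed (median 0.04).

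Most other inhibitors of the pathway did not pass the test. Of 12, 4 were lower and none higher in Huh7 Inject-Embed against 2D culture (median -0.16), and 2 were lower and none higher in Mix-Embed (median -0.17), the second count being near the 10.6% of all genes. The SOCS-box proteins SOCS4 and SOCS7 fell by 0.38 ± 0.08 and 0.22 ± 0.07 in Inject-Embed, the phosphatase PTPN6 by 0.48 ± 0.16 and CISH, another SOCS family inhibitor, by 1.64 ± 0.60.

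**Figure D4:**
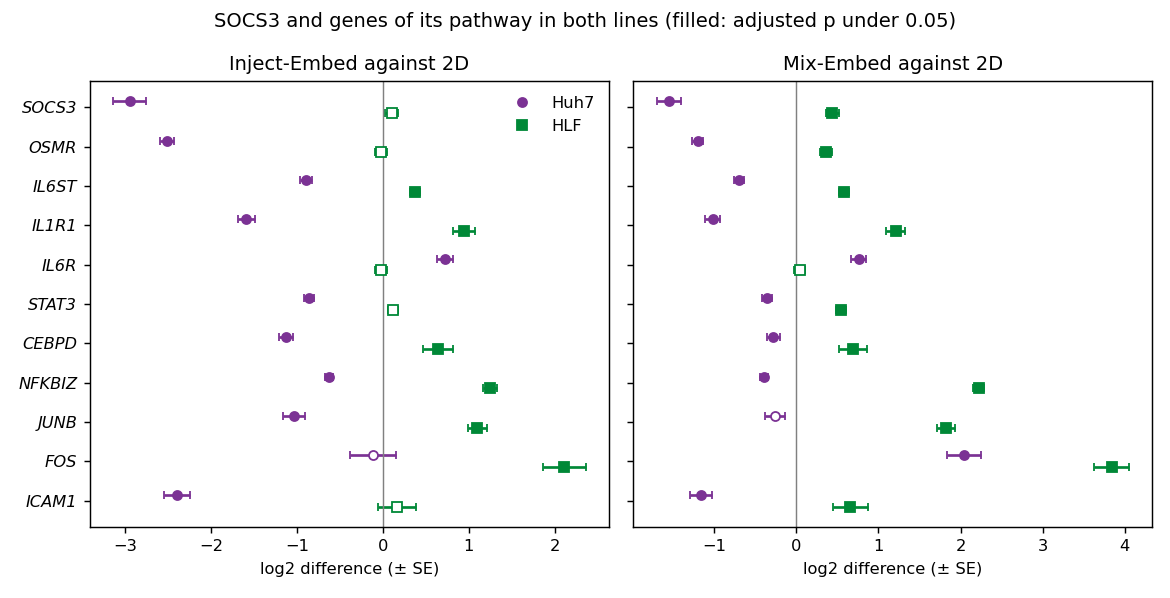
Log2 differences with SE (bars) against 2D culture of SOCS3 and 10 genes picked by hand from the lists of receptors, STAT factors, transcription factors and STAT3 targets. Inject-Embed is on the left and Mix-Embed on the right, with Huh7 as circles and HLF as squares. Filled points passed an edgeR adjusted p of 0.05. For SOCS3, Huh7 lies at -2.95 and -1.55 and HLF at 0.10 and 0.44, and OSMR, IL6ST, IL1R1 and STAT3 likewise lie lower in Huh7 than in HLF. IL6R goes the other way and lies higher in Huh7 than in HLF on both sides. CEBPG, JAK1 and PIM1, which are not drawn, also went that way in both gels by the interaction term.

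Among 13 transcription factors of acute phase genes, 5 were lower and 3 higher in Huh7 Inject-Embed against 2D culture (median -0.19), and 3 were lower and 2 higher in Mix-Embed (median 0.0). CEBPD, the C/EBP factor that inflammation induces, fell by 1.13 ± 0.08 in Inject-Embed (adjusted p = 1.35e-14) and by 0.28 ± 0.08 in Mix-Embed (adjusted p = 0.00694), and NFKBIZ, an inducible partner of NF-kB, fell by 0.63 ± 0.05 in Inject-Embed and by 0.39 ± 0.05 in Mix-Embed. NFKB1, an NF-kB subunit, fell by 0.29 ± 0.08 in Mix-Embed. The liver factors CEBPA and HNF4A were higher, by 0.32 ± 0.06 and 0.44 ± 0.05 in Inject-Embed and by 0.59 ± 0.06 and 0.59 ± 0.05 in Mix-Embed. In HLF Mix-Embed against 2D culture 6 of the 13 were higher and 2 lower, the second count being near the 14.6% of all genes. There CEBPB fell by 0.37 ± 0.09 and CEBPG by 0.42 ± 0.07, while CEBPD was 0.69 ± 0.17 higher and NFKBIZ 2.22 ± 0.07 higher (adjusted p = 0.00128 and 1.58e-27).

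Of 10 other STAT3 target genes, 6 were lower and 1 higher in Huh7 Inject-Embed against 2D culture (median -0.55), and 4 were lower and 2 higher in Mix-Embed (median -0.13). ICAM1, an adhesion molecule, fell by 2.40 ± 0.15 in Inject-Embed (adjusted p = 5.01e-17) and by 1.16 ± 0.13 in Mix-Embed, and MCL1, a survival factor, by 0.45 ± 0.05 in Inject-Embed and by 0.30 ± 0.05 in Mix-Embed. JUNB, an AP-1 subunit, fell by 1.04 ± 0.13 in Inject-Embed (adjusted p = 3.45e-08) and BCL6 by 0.65 ± 0.12, whereas BCL3 was 0.48 ± 0.11 higher. FOS was 2.04 ± 0.21 higher in Mix-Embed than in 2D culture (adjusted p = 1.7e-10), and PIM1 0.72 ± 0.12 higher.

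In HLF, 5 of these 10 targets were higher and 1 lower in Mix-Embed against 2D culture, and 4 were higher and 1 lower in Inject-Embed. FOS averaged 20.7 ± 1.2 CPM in Mix-Embed and 1.44 ± 0.46 CPM in 2D HLF libraries (3.84 ± 0.21, adjusted p = 6.06e-19), and JUNB 68.8 ± 4.1 CPM in Mix-Embed and 19.5 ± 1.1 CPM in 2D (1.82 ± 0.11, adjusted p = 3.15e-18). FOS, JUNB and NFKBIZ are also early response genes to many other stimuli.

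Receptors and partners of the member proteins moved in both directions. Of 7 tested, 2 were higher and 2 lower in Huh7 Inject-Embed (median 0.0), and 2 were higher and 1 lower in Mix-Embed against 2D culture (median 0.0). HMOX1, which breaks down heme, was 0.90 ± 0.11 higher in Inject-Embed (adjusted p = 2.02e-08) and 0.87 ± 0.11 higher in Mix-Embed, while in HLF Mix-Embed it fell by 0.92 ± 0.12. LRP1, the hemopexin receptor, was 0.18 ± 0.05 higher in Inject-Embed and 0.59 ± 0.05 higher in Mix-Embed. SCARB1, a receptor for high-density lipoprotein and serum amyloid A, fell by 0.29 ± 0.05 in Inject-Embed. CD163, the haptoglobin-haemoglobin receptor of macrophages, had 0 counts throughout.

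The genes whose pattern over the 6 Huh7 libraries lay nearest to HP and SOCS3 were found among 9692 protein-coding genes with at least 10 CPM in a Huh7 group, by the root mean square difference of centred log2(CPM + 1). Nearest to HP, whose own profile had a root mean square of 0.516, were SLC44A2 (difference 0.0367), PROM1 (0.0694) and SERINC2 (0.07). Nearest to SOCS3, at 0.994, were THBS4 (difference 0.118), IFITM3 (0.142) and VNN3 (0.162). THBS4 averaged 46.1 CPM in Inject-Embed, 91.6 CPM in Mix-Embed and 264 CPM in 2D culture, and IFITM3 14.9, 31.8 and 85.9 CPM in the same order. CRP, with a root mean square of 0.0362 over a profile of nearly all zeros, was nearest to flat genes such as MRPS27 and has no pattern to match.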

How the data were processed

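Poly-A RNA was sequenced from 12 libraries, 2 in each of 6 groups of line and culture. The authors deposited a count of reads per gene for 58735 genes, made with FastQC, Trimmomatic, STAR 2.7.9a and featureCounts on GRCh38 per the submitters' processing notes; no source used here names the strand setting or the annotation release. The authors also deposited FPKM values, which equal the count divided by the deposited gene length and library total within a relative 1e-06 for all 167453 values of at least 20 counts. The deposited column names shorten Mix-Embed to a name for embedded cells and were read as that group.

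The 10 members and the 9 gene lists beside them were chosen with earlier results of these data known. Counts were tested with edgeR 4.0.16 (R 4.3.3), with TMM scaling, filterByExpr at a minimum count of 10, a quasi-likelihood F test on 6 group means over all 12 libraries and Benjamini-Hochberg adjustment over 19342 tested genes, called at 0.05; the p-values measure the spread between the deposited replicates. Every edgeR value and adjusted p in the text comes from this fit unless another is named. The fit had 6 residual degrees of freedom, a median of 36.3 prior degrees of freedom and a common dispersion of 0.00211, a coefficient of variation of 4.6%. The spread behind a p-value thus leaned more on the trend over all genes than on that gene's own replicates. Totals of 12325877 to 16041906 counts set the precision. Ratios of summed counts carry exact 95% intervals, and bounds use 3 counts over the group; both cover counting error only.

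Named genes were all members and, from each list, up to 4 genes with the smallest adjusted p among those called in Huh7 against 2D plus up to 2 of opposite sign; IL6, CD163 and the HLF values of list genes were added after their values were seen. A gene that this rule names is not reported here. Alternatives were RLE scaling, library totals alone, no filter, only the groups compared, a replicate block, DESeq2 1.42.0, limma 3.58.1 on log2(FPKM + 1) and log2(FPKM + 0.1), leaving out each library, and, added after the data were seen, summed counts of ORM1 with ORM2 and of SAA1 with SAA2. Same-numbered replicates did not deviate together, with correlations of -0.024 to 0.022 over 15 pairs of groups, so the numbers were not taken to pair samples.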

Additional observations from a re-analysis of the deposited data

Results flagged for a closer look

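The culture response of SOCS3 differed between the lines in all 3 interaction tests, each the Huh7 log2 difference minus the HLF one by edgeR's quasi-likelihood test. The difference was -3.05 for Inject-Embed against 2D (adjusted p = 1.86e-15), -1.99 for Mix-Embed against 2D (adjusted p = 1.69e-12) and -1.07 for Inject-Embed against Mix-Embed culture (adjusted p = 0.00374). The last call ended without Huh7 Inject-Embed replicate 1 (adjusted p = 0.0864) and in limma on log2(FPKM + 1) (-0.34, adjusted p = 0.13). The response of LBP differed by -5.06 for Mix-Embed against 2D culture (adjusted p = 0.00133), and rests on 9 counts in Mix-Embed and 1 in 2D HLF libraries; without HLF Mix-Embed replicate 1 the adjusted p was 0.0518.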

How the results depend on the processing

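Of the 92 results recomputed under each, 92 kept direction and side of the threshold with RLE scaling and 92 with the replicate block, where SOCS3 in Huh7 Inject-Embed against 2D culture stayed at -2.95; the numbers showed no pairing. Library totals alone kept 91 of 92, no filter 91 of 92, only the groups compared 80 of 81, DESeq2 78 of 83, and limma 77 of 92 with either pseudocount. DESeq2 called 4 members in Huh7 Mix-Embed against 2D, where it gave SAA1, SAA2 and CRP no adjusted p, and 1 in HLF Mix-Embed against 2D, where it gave CRP and SAA1 none. Limma on log2(FPKM + 1) and log2(FPKM + 0.1) called 1 and 1 members in HLF Inject-Embed against 2D, and 982 and 670 genes in HLF Inject-Embed against Mix-Embed. With + 0.1 it called 2 members in Huh7 Inject-Embed against Mix-Embed and 0 in the same HLF comparison. For the difference between the lines limma called 8 and 8 members in Inject-Embed against 2D, 9 and 6 in Mix-Embed against 2D, and 2 with + 1 in Inject-Embed against Mix-Embed. The cause was not tested. Leaving out 1 library gave 2696 to 4208 genes in Huh7 Mix-Embed against 2D, 2247 to 3773 in HLF Inject-Embed against 2D, and 766 to 1861 genes with 0 to 1 members in HLF Inject-Embed against Mix-Embed. Members numbered 1 to 3 in HLF Mix-Embed against 2D, and for the difference between the lines 1 to 2, 1 to 2 and 0 to 1 in Inject-Embed against 2D, Mix-Embed against 2D and Inject-Embed against Mix-Embed. Signs turned in uncalled results: SAA2 in Huh7 Inject-Embed against Mix-Embed ranged from -1.999 to 0.043; HPX in HLF from -0.056 to 0.48 in Inject-Embed against 2D, -0.14 to 0.75 in Mix-Embed against 2D and -0.56 to 0.33 in Inject-Embed against Mix-Embed; SAA1 in Huh7 against HLF Inject-Embed was -3.11 and -0.66 in 2 fits and up to 3.38. The difference between the lines in Inject-Embed against Mix-Embed ranged from -0.75 to 0.15 for HPX and -0.28 to 3.83 for LBP, with -0.15 in another fit and -0.30 and -0.25 by limma. Library totals alone moved the split of higher and lower genes to 2393 and 2132 in Huh7 Inject-Embed against Mix-Embed (TMM 1848 and 2587), 2163 and 1252 in HLF Inject-Embed against 2D (1758 and 1713), 3434 and 2072 in HLF Mix-Embed against 2D (2789 and 2816), and, between the lines, 1457 and 2466 in Mix-Embed against 2D (1968 and 1976) and 1381 and 876 in Inject-Embed against Mix-Embed (893 and 1151). A gene with 0 counts in both groups of a comparison was fitted at a difference of 0.0 and enters list medians as such, but was not recomputed here. Depth limits CRP, SAA1, SAA2, SAA4 and LBP, with few counts in several groups.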
